A study of Mus musculus with 4 samples.

Results

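Messenger RNA levels of 37 named genes of fatty acid and triglyceride synthesis were compared between SMRTmRID and wild-type mouse fibroblasts. The genes encode the enzymes of de novo lipogenesis, desaturation, elongation, acyl-CoA activation and glycerolipid assembly, with a few regulators and a lipase. A probe set counted for a gene when the platform annotation gave it that symbol alone. Of the 37 genes, 36 had such a probe set and Acsl1 had none here, and 32 of them were among the 11057 genes tested, out of 18193 genes named on the array.

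The cells were 3T3-MEFs, embryonic fibroblasts grown by serial passage into a permanent line, and RNA was taken at confluence with no differentiation stimulus. SMRT, a corepressor, is brought to target genes by nuclear receptors and keeps them silent, and SMRTmRID cells derive from mice whose SMRT carries a mutation in the domains that receptors bind. Single-colour Affymetrix arrays were hybridised for each genotype, 2 for SMRTmRID and 2 for wild-type. The titles call the arrays of a genotype technical replicates, so the p-values measure only the spread between such arrays and the difference between these particular cell lines cannot be told apart from the effect of the genotype. No check of the genotype label was made, and the transcript of SMRT was not analysed here.

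Cells make fatty acids from cytosolic citrate: ATP citrate lyase releases acetyl-CoA, acetyl-CoA carboxylase makes malonyl-CoA, and fatty acid synthase joins these units into palmitate with NADPH as the reductant. Elongases lengthen the chain, desaturases insert cis bonds, acyl-CoA synthetases activate the product, and a relay of acyltransferases, the lipin phosphatases and DGAT build triglyceride on glycerol phosphate. SREBP1 and ChREBP are the transcription factors that raise this programme, and the liver X receptor, one of the nuclear receptors that bind corepressors, activates Srebf1, Fasn and Scd1 in mouse liver. Fibroblasts hold little stored triglyceride until they are induced to become adipocytes.

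The arrays had been scaled to one trimmed mean signal, and the ratio of 3′ to 5′ beta-actin signal lay between 1.19 and 1.20. Over the genes tested the arrays of a genotype correlated at r = 0.991 for SMRTmRID and 0.991 for wild-type, and arrays of different genotype at 0.860 to 0.861. The summed signal of 7 fibroblast markers was 72842 to 77158 on the SMRTmRID arrays and 60789 to 62338 on the wild-type arrays, and all 7 passed the filter on signal. Of these markers 4 were higher (Pdgfra, Pdgfrb, Col3a1 and Col1a2), 2 lower (Vim and Fn1) and Col1a1 did not pass the test. Among the fibroblast markers the receptor gene Pdgfra differed most, with a log2 difference of 4.20. Its signals were 4828 and 5090 in SMRTmRID and 247 and 262 in wild-type. Pdgfrb, the gene of the related receptor, had signals of 6310 and 6115 in SMRTmRID and 1719 and 1879 in wild-type, a log2 difference of 1.78. Of the 5 mature adipocyte markers with a probe set only Lipe, the hormone-sensitive lipase gene, passed the filter on signal. The adipocyte markers summed to 135 and 126 on the SMRTmRID arrays and to 117 and 96.3 on the wild-type arrays. Adipoq had signals of 15.3 and 13.0 in SMRTmRID and 1.92 and 9.54 in wild-type. The arrays of Cidec, Retn and Lep overlapped between genotypes, with mean signals of 9.47, 29.5 and 1.41 in SMRTmRID. In wild-type their means were 9.04, 26.2 and 1.08. The median signal of all probe sets was also higher in SMRTmRID, at 37.8 and 38.3 against 34.3 and 30.3. None of 4 hepatocyte and none of 4 endothelial markers passed the filter. The hepatocyte markers summed to 58.4 and 57.7 on the SMRTmRID arrays and to 44.8 and 26.4 on the wild-type arrays. The endothelial markers summed to 77.1 and 70.9 in SMRTmRID and to 68.6 and 64.2 in wild-type. Among 5 blood cell markers Lyz2 and Adgre1 passed it, and the sums were 179 and 193 in SMRTmRID and 111 and 106 in wild-type. Lyz2 was higher, with signals of 105 and 95.3 in SMRTmRID and 27.4 and 15.6 in wild-type and a log2 difference of 1.65 (limma, adjusted p = 0.000265), and Adgre1 did not pass the test. Of the blood cell markers under the filter, Cd68 leaned the other way, with signals of 11.1 and 26.6 in SMRTmRID and 40.9 and 31.0 in wild-type. Ptprc and Itgam had mean signals of 11.6 and 15.1 in SMRTmRID and 4.01 and 8.66 in wild-type. Among 5 epithelial markers Epcam passed the filter, and the sums were 199 to 225 in SMRTmRID and 259 to 312 in wild-type. Epcam was lower, with a log2 difference of -0.37. Cdh1, under the filter, had signals of 2.41 and 1.61 in SMRTmRID and 55.9 and 42.3 in wild-type. Krt8, Krt18 and Cldn4, also under the filter, leaned the other way. Their mean signals were 30.7, 24.7 and 20.3 in SMRTmRID and 18.6, 21.5 and 17.4 in wild-type. The part of these markers in the differences below was not tested. In RNA from whole cultures, a difference in RNA per cell and a difference in the share of cells that hold a transcript cannot be told apart.

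The lipid synthesis genes did not move as a block. Of the 32 tested, 10 were higher and 12 lower in SMRTmRID cells and 10 did not pass the test, in a comparison in which 65.2% of all genes tested passed: 30.3% of all genes tested were higher and 35% lower (limma, Benjamini-Hochberg adjusted p under 0.05). The share of lipid synthesis genes that passed, 68.8%, was therefore close to that of the array as a whole. Their median log2 difference was -0.07, beside -0.05 over all genes tested. On the scale of signal + 16, a rise of 2-fold or more was called for 2 of the 32 genes, beside 9.69% of all genes tested. A fall of that size on the same scale was called for 3, beside 6.79%. Elovl7, which is among these 3, passed the filter on signal through its wild-type arrays alone. For 25 of the 32 genes each SMRTmRID array lay outside the range of the wild-type arrays, as it did for 81.5% of all genes tested. A positive difference means a higher signal in SMRTmRID. Differences are of log2(signal + 16), so those that start from a low signal are understated, and the error of a difference is limma's standard error (SE).

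**Figure D1:**
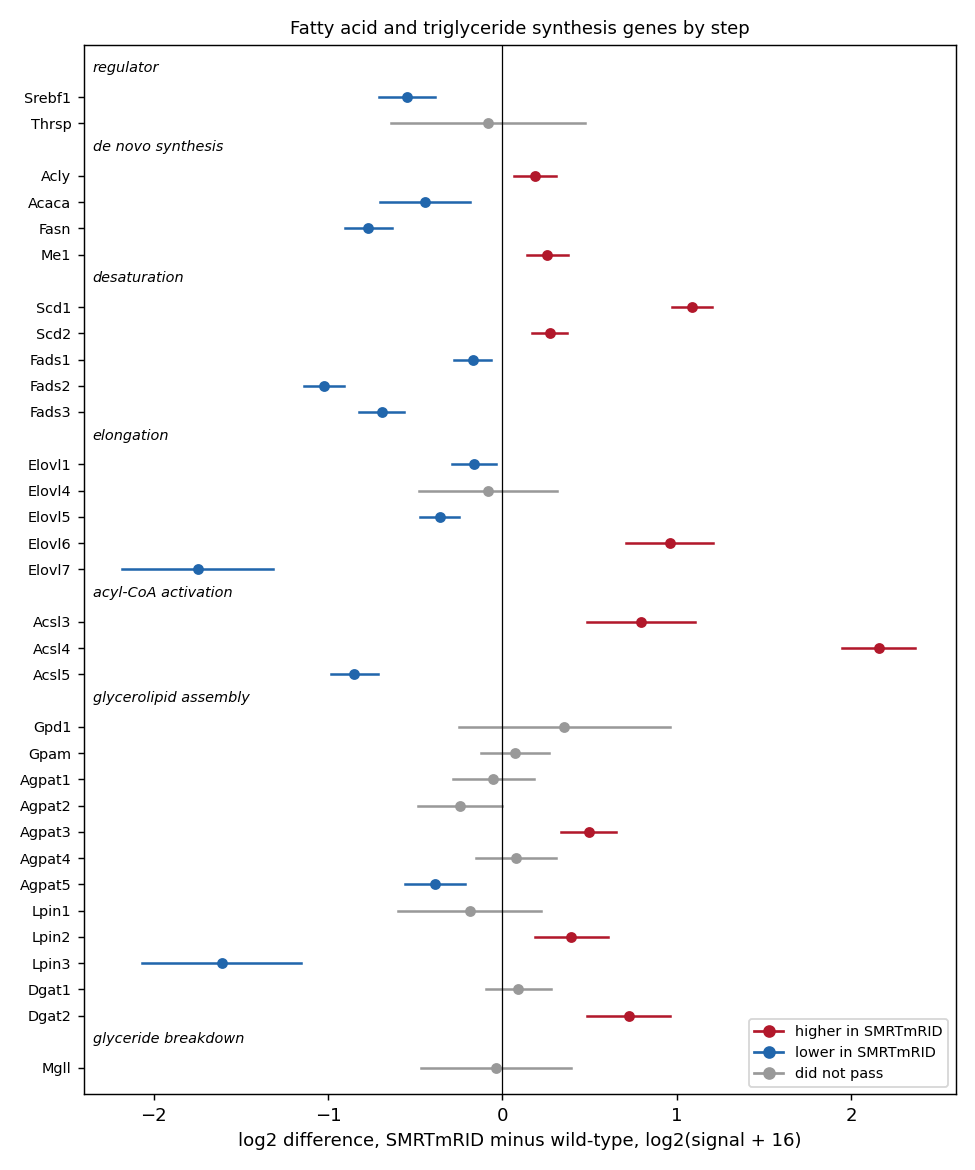
Difference between SMRTmRID and wild-type in log2(signal + 16), positive where SMRTmRID is higher, for the 32 genes tested, grouped by step (vertical axis), with limma's 95% interval as a bar. Each step with more than 2 genes tested holds genes on both sides of 0, with Acsl4 farthest to the right at 2.16 and Elovl7 farthest to the left at -1.75.

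The regulators that passed the filter did not rise. Srebf1, which encodes SREBP1, had signals of 374 and 373 on the SMRTmRID arrays and 539 and 566 on the wild-type arrays. Its SMRTmRID arrays lay below its wild-type arrays, with a log2 difference of -0.55 ± 0.07 (SE, n = 2 arrays each, adjusted p = 0.000105). Srebf1 was measured by 1 probe set, and its transcript forms were not told apart here. Thrsp, a lipogenic regulator also called Spot 14, had signals of 45.6 and 56.9 in SMRTmRID and 67.4 and 44.2 in wild-type. The genotypes overlapped for Thrsp, and the 95% interval of its log2 difference ran from -0.64 to 0.48. Mlxipl, which encodes ChREBP, had signals of 1.14 and 1.59 in SMRTmRID and 19.0 and 12.0 in wild-type. All 4 of these Mlxipl signals lie under the filter of 35.1, so it was not tested with the others, and a fit without the filter gave a log2 difference of -0.85 ± 0.23 (SE, adjusted p = 0.0236).

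Along the chain from citrate to palmitate Acly and Me1 were slightly higher, and Acaca and Fasn were lower. Acly, ATP citrate lyase, had signals of 2226 and 2153 in SMRTmRID and 1851 and 2000 in wild-type, a log2 difference of 0.19 ± 0.05 (SE, adjusted p = 0.0127). The rise of Acly was small: it no longer passed without SMRTmRID replicate 1 (adjusted p = 0.0574) or without wild-type replicate 1 (0.0963). Its other probe sets gave 0.32, which passed (limma, adjusted p = 0.00135), and 0.10, which did not (0.117), and with the mean of its probe sets Acly did not pass (0.0677). Me1, cytosolic malic enzyme, which supplies NADPH, had signals of 1321 and 1271 in SMRTmRID and 1077 and 1085 in wild-type, a log2 difference of 0.26 ± 0.05 (SE, adjusted p = 0.00174). A second, dimmer probe set of Me1 gave 0.73, so the direction of Me1 is shared by its probe sets and the size is not.

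Acaca, the cytosolic acetyl-CoA carboxylase that commits acetyl-CoA to fatty acid synthesis, had signals of 202 and 251 in SMRTmRID and 306 and 317 in wild-type, a log2 difference of -0.44 ± 0.11 (SE, adjusted p = 0.00712). Without SMRTmRID replicate 1 the difference of Acaca was -0.29, and its other probe set above the filter gave -0.65. Fasn, fatty acid synthase, had signals of 672 and 667 in SMRTmRID and 1107 and 1198 in wild-type, a log2 difference of -0.77 ± 0.06 (SE, adjusted p = 3.44e-06). Fasn was thus 1.72-fold lower in SMRTmRID cells by mean signal, with a wide gap between the genotypes relative to the spread of either. Acacb, the mitochondrial form of acetyl-CoA carboxylase, which makes the malonyl-CoA that restrains fatty acid oxidation, had signals of 30.6 and 48.1 in SMRTmRID and 5.86 and 2.74 in wild-type. Its mean over the 4 arrays fell under the filter, and a fit without the filter gave a log2 difference of 1.43 ± 0.29 (SE, adjusted p = 0.00691). The other probe set of Acacb, also under the filter, went the other way, at -0.36 without the filter. Its signals were 5.41 and 9.43 in SMRTmRID and 23.6 and 6.57 in wild-type, so the direction of Acacb is not shared by its probe sets.

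The desaturases split by class. The stearoyl-CoA desaturases, which make oleate and palmitoleate, were both higher in SMRTmRID. Scd1 had signals of 1729 and 1702 in SMRTmRID and 801 and 798 in wild-type, a log2 difference of 1.09 ± 0.05 (SE, adjusted p = 1.20e-07). Scd2 had signals of 7694 and 7482 in SMRTmRID and 6191 and 6375 in wild-type, a log2 difference of 0.27 ± 0.04 (SE, adjusted p = 0.000482). The Scd1 signal was 2.15 times and the Scd2 signal 1.21 times the wild-type mean, and the log2 difference of Scd1 exceeded that of Scd2 by 0.82. The other probe sets of these genes moved the same way, at 0.87 for Scd1 and 0.40 and 0.29 for Scd2.

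The Fads genes were all lower. Fads2, the desaturase at the entry to long-chain polyunsaturated fatty acid synthesis, had signals of 858 and 846 in SMRTmRID and 1780 and 1718 in wild-type, a log2 difference of -1.02 ± 0.05 (SE, adjusted p = 1.99e-07). Its other probe sets above the filter gave -1.12 and -0.80. Fads3, a relative of Fads1 and Fads2, had signals of 1038 and 1124 in SMRTmRID and 1715 and 1794 in wild-type, a log2 difference of -0.69 ± 0.06 (SE, adjusted p = 4.81e-06). The dimmer probe sets of Fads3 gave smaller differences, -0.28, which passed, and -0.08, which did not. Fads1, which acts after Fads2 in the same pathway, differed least, with signals of 2082 and 2021 in SMRTmRID and 2317 and 2303 in wild-type; the log2 difference was -0.17 ± 0.05 (SE, adjusted p = 0.00933). Under quantile normalization the difference of Fads1 shrank to -0.04 and did not pass (adjusted p = 0.383). Its dimmer probe set gave -0.19 and did not pass (limma, adjusted p = 0.408), nor did the mean of its probe sets (0.0827).

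The members of each class also lie side by side in the genome. Fads3, Fads2 and Fads1 follow each other on chromosome 19 with 0 protein-coding genes between neighbours, and Scd2 and Scd1 lie on the same chromosome with 1 protein-coding gene, Scd4, between them (GRCm38.p6 gene order). No pair of neighbouring genes within either group moved in opposite directions.

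**Figure D2:**
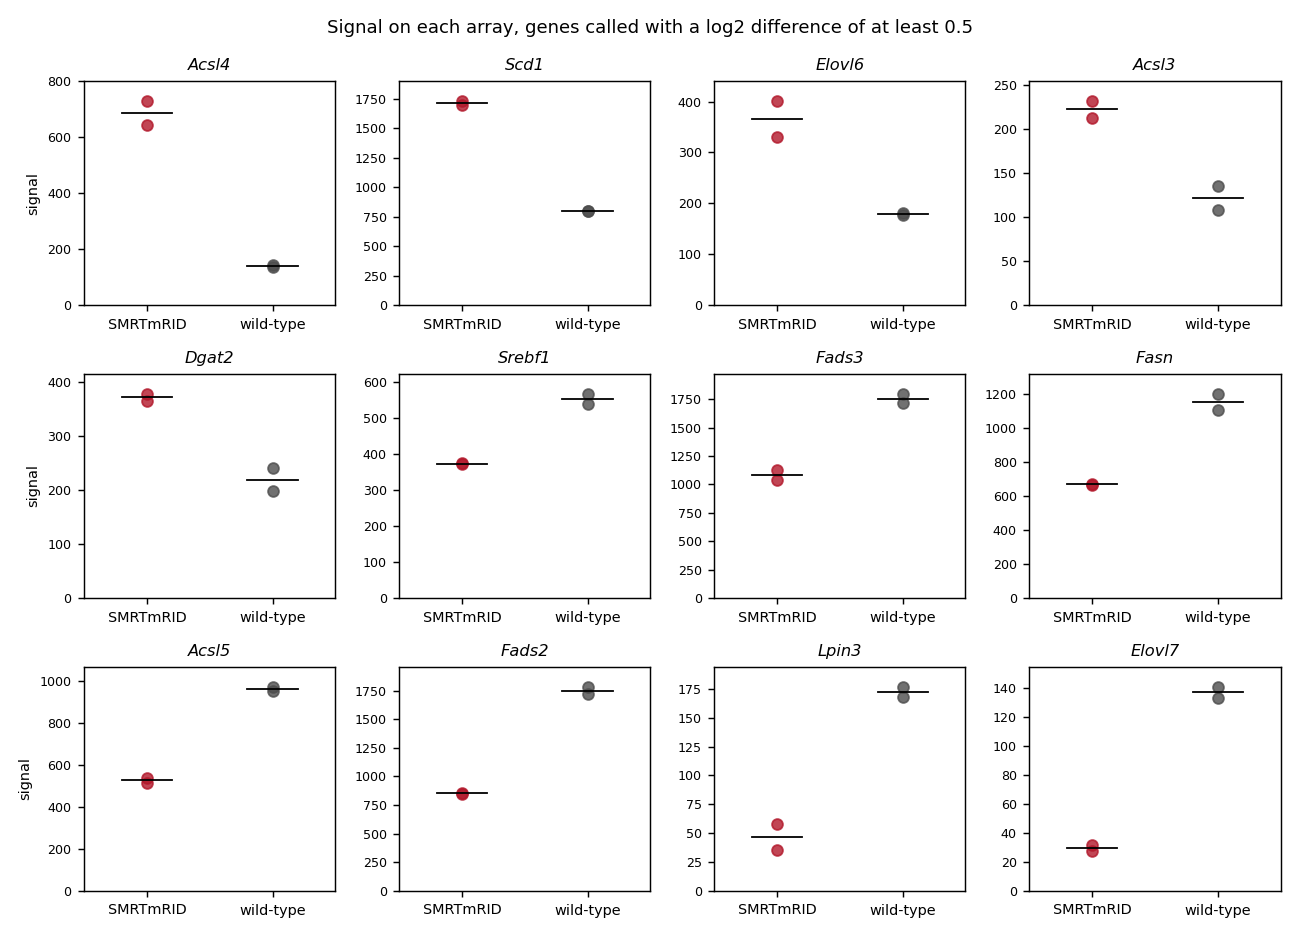
Signal (linear scale, arbitrary units of the deposited table) on each array for the 12 genes that passed with a log2 difference of at least 0.5 in size, with SMRTmRID arrays on the left and wild-type arrays on the right of each panel and a line at the mean of 2 arrays. In each of the 12 panels the arrays of the genotypes are separate, from Acsl4 at 645 and 728 in SMRTmRID against 145 and 137 in wild-type to Elovl7 at 31.5 and 27.6 in SMRTmRID against 140 and 133 in wild-type.

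Among the elongases 1 gene rose and 3 fell. Elovl6, which lengthens palmitate to stearate and so acts directly on the product of fatty acid synthase, had signals of 400 and 330 in SMRTmRID and 181 and 177 in wild-type, a log2 difference of 0.96 ± 0.11 (SE, adjusted p = 4.70e-05). The SMRTmRID signal of Elovl6 was 2.04 times the wild-type mean, and its second probe set gave 0.64. Elovl7, an elongase of saturated long chains, had signals of 31.5 and 27.6 in SMRTmRID and 140 and 133 in wild-type, a log2 difference of -1.75 ± 0.19 (SE, adjusted p = 3.26e-05). Elovl7 passed the filter through its wild-type signal, and its size depends on the pseudocount, at -2.18 with a pseudocount of 1 and -1.10 with 64.

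Elovl5, which elongates polyunsaturated chains between the Fads2 and Fads1 steps, had signals of 1604 and 1679 in SMRTmRID and 2077 and 2140 in wild-type, a log2 difference of -0.36 ± 0.05 (SE, adjusted p = 0.000158). With it, Fads2, Elovl5 and Fads1, the enzymes that act in sequence on essential fatty acids, were each lower in SMRTmRID cells. Of these, Fads1 had the smallest difference, and its call was lost under some alternatives. Elovl1, an elongase of saturated very long chains, had signals of 851 and 828 in SMRTmRID and 934 and 949 in wild-type, a log2 difference of -0.16 ± 0.06 (SE, adjusted p = 0.0270). That call did not hold without SMRTmRID replicate 2 (adjusted p = 0.113), without wild-type replicate 1 (0.0565) or without wild-type replicate 2 (0.0927). The other probe sets of Elovl1 gave larger falls, -0.31 (limma, adjusted p = 0.00194) and -0.25 (0.00909), and the mean of its probe sets gave -0.28 (0.0152). Elovl4 had signals of 76.0 and 74.8 in SMRTmRID and 82.8 and 79.0 in wild-type, with a 95% interval of the log2 difference from -0.48 to 0.31. Elovl2 and Elovl3 lay under the filter, with signals of 0.696 and 1.91 in SMRTmRID and 9.63 and 11.7 in wild-type for Elovl2, and of 27.8 and 24.1 in SMRTmRID and 35.6 and 27.4 in wild-type for Elovl3. Without the filter the log2 difference was -0.62 for Elovl2 (limma, adjusted p = 0.0486) and -0.17 for Elovl3 (0.693).

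The largest rise among the 32 genes was that of an acyl-CoA synthetase, an enzyme that traps a fatty acid in the cell by joining it to coenzyme A. Acsl4, an isoenzyme with a preference for arachidonate, had signals of 645 and 728 in SMRTmRID and 145 and 137 in wild-type, a log2 difference of 2.16 ± 0.09 (SE, adjusted p = 7.25e-08). The signal was 4.87 times the wild-type mean, and the other probe sets of Acsl4 gave 1.82 and 1.62. Acsl3, an isoenzyme of the endoplasmic reticulum and lipid droplets, had signals of 213 and 231 in SMRTmRID and 108 and 135 in wild-type, a log2 difference of 0.80 ± 0.14 (SE, adjusted p = 0.000681).

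Acsl5, an isoenzyme of mitochondria and endoplasmic reticulum, went the other way, with signals of 539 and 515 in SMRTmRID and 952 and 970 in wild-type; the log2 difference was -0.85 ± 0.06 (SE, adjusted p = 1.74e-06). Acsl4 and Acsl5 differed in their log2 differences by 3.01. The within-array log2 ratio of the Acsl4 to the Acsl5 signal, which shows unequal change and no level, was 0.25 and 0.49 on the SMRTmRID arrays and -2.59 and -2.69 on the wild-type arrays.

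The start regions of Fasn and Elovl6 and of Acsl4 and Acsl5 are shown because these are pairs of a successive step and of parallel isoenzymes whose members moved in opposite directions. Each sequence is the RefSeq window of 250 bases before and 50 bases from the gene's start, build GRCm38.p6, written 5′ to 3′ on the gene's strand. Capitals mark matches on either strand to the motifs CCAAT (the box bound by NF-Y), CACGTG (the E-box bound by SREBP1, USF and ChREBP) and TCACNCCAC (a sterol regulatory element). Overlapping matches run together.
Fasn, chr11:120824498-120824797, minus strand: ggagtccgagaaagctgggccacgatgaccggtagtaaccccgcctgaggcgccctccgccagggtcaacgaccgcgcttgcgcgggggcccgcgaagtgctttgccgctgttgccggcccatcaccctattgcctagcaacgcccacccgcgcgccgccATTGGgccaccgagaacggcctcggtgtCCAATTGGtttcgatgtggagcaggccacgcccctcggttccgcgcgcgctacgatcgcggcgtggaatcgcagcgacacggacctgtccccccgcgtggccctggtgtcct
Elovl6, chr3:129532136-129532435, plus strand: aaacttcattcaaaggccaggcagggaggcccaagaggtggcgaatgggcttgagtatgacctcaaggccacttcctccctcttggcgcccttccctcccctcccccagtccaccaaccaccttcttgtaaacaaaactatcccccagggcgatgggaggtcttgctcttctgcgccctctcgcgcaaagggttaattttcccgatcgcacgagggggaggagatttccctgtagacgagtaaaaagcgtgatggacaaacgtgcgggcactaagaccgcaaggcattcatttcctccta
Acsl4, chrX:142390486-142390785, minus strand: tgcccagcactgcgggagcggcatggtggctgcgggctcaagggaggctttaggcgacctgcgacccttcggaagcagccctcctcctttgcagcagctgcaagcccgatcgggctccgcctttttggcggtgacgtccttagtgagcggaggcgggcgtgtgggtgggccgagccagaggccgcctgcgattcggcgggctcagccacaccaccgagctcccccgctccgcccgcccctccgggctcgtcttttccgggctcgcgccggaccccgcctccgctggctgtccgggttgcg
Acsl5, chr19:55253119-55253418, plus strand: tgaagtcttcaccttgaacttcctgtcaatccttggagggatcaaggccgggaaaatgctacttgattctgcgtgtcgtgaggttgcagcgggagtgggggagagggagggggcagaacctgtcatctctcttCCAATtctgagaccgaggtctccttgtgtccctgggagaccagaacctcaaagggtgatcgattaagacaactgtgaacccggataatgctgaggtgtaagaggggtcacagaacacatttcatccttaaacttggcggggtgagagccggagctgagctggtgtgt
The Fasn window, which belongs to a gene that was lower, holds 3 matches to CCAAT, starting 90, 62 and 59 bases before the gene's start, of which the last pair overlap. The Acsl5 window, of another lower gene, holds 1 match, starting 117 bases before the start, and the windows of the higher genes Elovl6 and Acsl4 hold none of the motifs.

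The windows, from 7 genes that were higher and 10 that were lower, were too few to tell whether these letters go with direction. Windows were found for 29 of the 37 genes, 42 windows in all. A CCAAT match lay in 4 of 10 windows of the genes that were higher and in 7 of 14 windows of those that were lower, beside 37.4% of all 32851 windows of the table. CACGTG lay in 1 of 10 and in 2 of 14 windows, beside 7.15% of all, and TCACNCCAC in 0 of 10 and 0 of 14, beside 1.24% of all. A match is a run of letters and no evidence of binding.

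Glycerolipid assembly, the step with the most genes tested, had 7 of 12 that did not pass. The share that passed was 41.7%, beside 65.2% of all genes tested, and this gap was not tested. Gpam, the mitochondrial acyltransferase that starts the pathway, had signals of 417 and 379 in SMRTmRID and 395 and 359 in wild-type, with a 95% interval of the log2 difference from -0.12 to 0.27. Gpd1, which makes glycerol phosphate, had signals of 36.7 and 54.2 in SMRTmRID and 31.8 and 31.3 in wild-type and passed the filter through SMRTmRID, with an interval from -0.25 to 0.96. For Gpam the interval excludes a change as large as that of Dgat2 below, while that of Gpd1 does not.

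The acyltransferases of the next step, which turn lysophosphatidic acid into phosphatidic acid or act on related lysolipids, split. Agpat3 had signals of 536 and 548 in SMRTmRID and 384 and 375 in wild-type, a log2 difference of 0.49 ± 0.07 (SE, adjusted p = 0.000183). Its 3 dimmer probe sets gave larger rises, from 1.14 to 1.21. Agpat5 had signals of 427 and 478 in SMRTmRID and 585 and 605 in wild-type, a log2 difference of -0.39 ± 0.08 (SE, adjusted p = 0.00149), and taken as the mean of its probe sets it lost the call, at -0.13 (adjusted p = 0.399).

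Agpat2, the isoenzyme whose loss causes lipodystrophy, had signals of 373 and 447 in SMRTmRID and 445 and 530 in wild-type, a log2 difference of -0.24 ± 0.11 (SE, adjusted p = 0.0725). The arrays of Agpat2 overlapped, and the difference passed without SMRTmRID replicate 2 (adjusted p = 0.0178), without wild-type replicate 1 (0.0174), under quantile normalization (0.0441) and with the replicate number as a block (0.00814). Agpat1, an isoenzyme of the same reaction, had signals of 207 and 208 in SMRTmRID and 223 and 209 in wild-type, and the interval of its log2 difference ran from -0.29 to 0.18. Agpat4 had signals of 789 and 878 in SMRTmRID and 701 and 884 in wild-type. Its log2 difference of 0.08 did not pass (adjusted p = 0.516), though without wild-type replicate 2 it was 0.24 and did (adjusted p = 0.0279).

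The lipins, phosphatases that release diacylglycerol from phosphatidic acid, showed each of the 3 outcomes. Lpin2 had signals of 329 and 343 in SMRTmRID and 238 and 265 in wild-type, a log2 difference of 0.40 ± 0.09 (SE, adjusted p = 0.00433). Lpin3 had signals of 57.8 and 35.5 in SMRTmRID and 176 and 168 in wild-type, a log2 difference of -1.61 ± 0.20 (SE, adjusted p = 8.07e-05). The size for Lpin3 depends on the pseudocount, at -1.90 with a pseudocount of 1 and -1.10 with 64. Lpin1, the form that rises in adipocyte differentiation, had signals of 127 and 105 in SMRTmRID and 160 and 113 in wild-type and overlapping arrays, with an interval from -0.60 to 0.22. The dimmer probe set of Lpin1 had separate arrays, at 74.5 and 75.9 in SMRTmRID and 102 and 104 in wild-type. It gave -0.39 and did not pass (limma, adjusted p = 0.0612). Lpin2 and Lpin3 differed in their log2 differences by 2.01.

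The last step, from diacylglycerol to triglyceride, was higher through one of its unrelated enzymes. Dgat2 had signals of 377 and 365 in SMRTmRID and 240 and 198 in wild-type, a log2 difference of 0.72 ± 0.11 (SE, adjusted p = 0.000223). Dgat1 had signals of 417 and 380 in SMRTmRID and 363 and 383 in wild-type, with overlapping arrays and an interval from -0.10 to 0.28. Dgat2 exceeded Dgat1 in log2 difference by 0.63. Mgll, the monoacylglycerol lipase that acts in breakdown, had signals of 75.8 and 78.3 in SMRTmRID and 90.5 and 69.2 in wild-type and did not pass, with an interval from -0.46 to 0.40.

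Probe sets of one gene gave the same direction where the gene passed. Of the 22 genes called, 18 had other probe sets above the filter, 27 in all. The called genes Srebf1, Fasn, Acsl5 and Lpin3 had no other probe set, so their differences could not be checked in this way. All 27 of the other probe sets had the sign of the gene's brightest probe set, 23 of them passed in that direction and none passed in the other. The 7 other probe sets of genes that did not pass gave no call either.

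**Figure D3:**
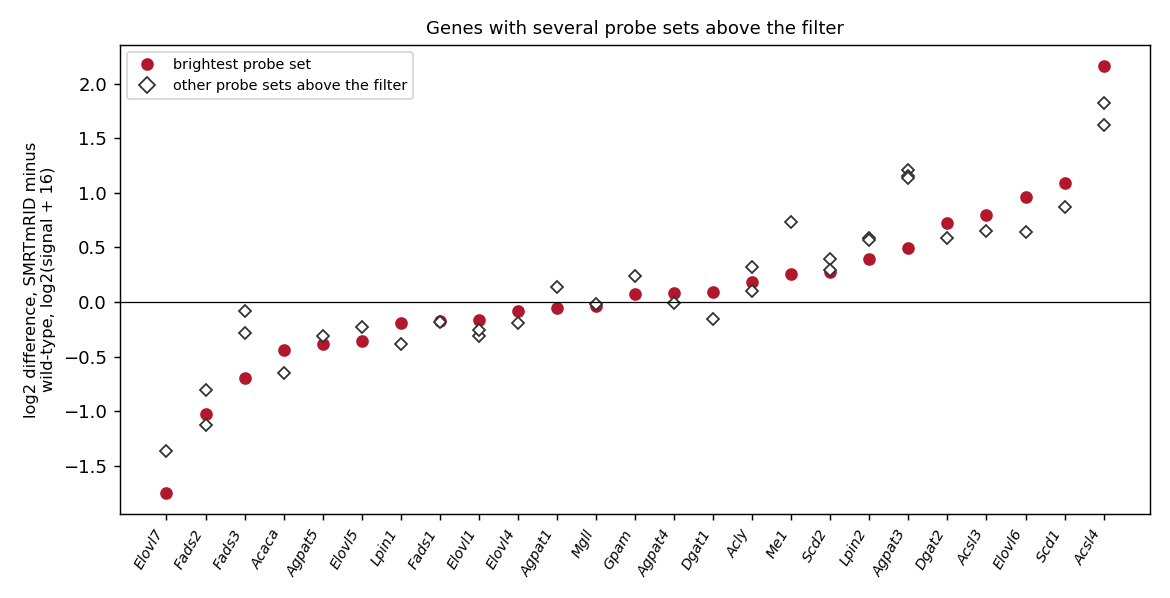
Difference between SMRTmRID and wild-type in log2(signal + 16), positive where SMRTmRID is higher, (vertical axis) for each probe set above the filter of the genes that have several, ordered by the brightest probe set (filled circles), with other probe sets as open diamonds. Acsl4 stands highest on each of its probe sets, from 1.62 to 2.16, while Me1, Agpat3 and Fads3 have the same sign on each probe set and unequal sizes.

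Genes that regulate or feed the pathway were read from lists of their own. Of 17 tested regulators of the SREBP1 and ChREBP pathway, a list that includes Srebf2, Sp1 and Nfya, 9 were higher and 5 lower. Their median log2 difference was 0.17. Mbtps2, the intramembrane protease that frees SREBP, had signals of 415 and 409 in SMRTmRID and 198 and 219 in wild-type, a log2 difference of 0.93. Insig1 and Insig2, which hold SREBP in the endoplasmic reticulum, had log2 differences of 0.92 and 0.78, and Usf2, an E-box factor of the Fasn promoter, of -0.70. None of these 4 genes had an adjusted p above 0.000129 (limma). The smaller regulator calls were fragile, with 5 higher and 3 lower without wild-type replicate 1, 3 lower without SMRTmRID replicate 1 and 2 lower without wild-type replicate 2.

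Of 11 tested enzymes that supply citrate, acetyl-CoA and NADPH, 2 were higher and 6 lower, with a median of -0.16. Idh1, cytosolic isocitrate dehydrogenase, a source of NADPH like Me1, had signals of 2149 and 2271 in SMRTmRID and 1069 and 1087 in wild-type, a log2 difference of 1.02. Taldo1 and Pgd, enzymes of the pentose phosphate pathway, which is another source of NADPH, had log2 differences of -1.51 and -1.01. Acss2, which makes acetyl-CoA from acetate, had signals of 151 and 174 in SMRTmRID and 110 and 68.0 in wild-type, a log2 difference of 0.79. The highest adjusted p among these 4 genes was 0.00624.

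Of 12 tested enzymes of the elongation cycle, mitochondrial fatty acid synthesis and thioester hydrolysis, 3 were higher and 7 lower, with a median of -0.35. The thioesterase genes Acot7, Acot2 and Acot1, whose products undo the reaction of the acyl-CoA synthetases, had log2 differences of -1.21, -1.08 and -0.81. Acot1 and Acot2 are near-identical copies, so their signals may share transcripts. Hacd2, a dehydratase of the elongation cycle, had a log2 difference of 0.73. The highest adjusted p of these 4 genes was 0.000252 (limma). The dehydratase genes did not move together: Hacd1 was lower, with a log2 difference of -0.41, and Hacd3, at -0.08, did not pass.

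Of 17 tested genes of other glycerolipid enzymes 5 were higher and 6 lower, with a median of -0.22. Cds1, which diverts phosphatidic acid to CDP-diacylglycerol, had signals of 13.5 and 1.89 in SMRTmRID and 115 and 122 in wild-type, a log2 difference of -2.55, and passed the filter through wild-type, as Lpcat2 did. Lpcat2 and Mogat2, a lysophospholipid and a monoacylglycerol acyltransferase, had log2 differences of -1.81 and -1.02, and Lpcat3, a liver X receptor target that places polyunsaturated chains into phospholipids, of 0.76, with an adjusted p of at most 0.000339 (limma). Of 9 tested genes of lipid droplets and lipolysis 2 were higher and 2 lower, with a median of -0.04. The droplet coat genes Plin2 and Plin4 had log2 differences of 0.43 and -1.60, the lipase activator gene Abhd5 of 0.42 and the triglyceride lipase gene Pnpla2 of -0.72, which with the mean of its probe sets was -0.25 and did not pass (adjusted p = 0.217). All 4 passed as single genes, with an adjusted p of at most 0.00187 (limma). Called shares of these lists stand beside the 65.2% of all genes tested, and the lists were not tested as sets.

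**Figure D4:**
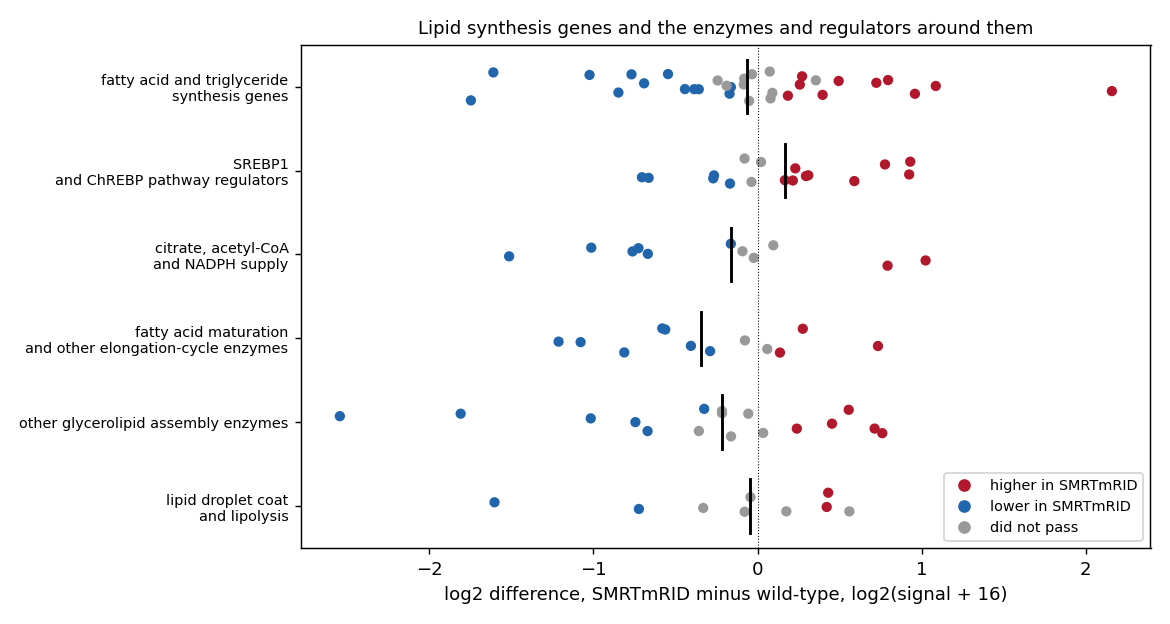
Difference between SMRTmRID and wild-type in log2(signal + 16), positive where SMRTmRID is higher, (horizontal axis) for the genes tested of the lipid synthesis set and of 5 surrounding lists (vertical axis, points spread for legibility), with a bar at each list's median. Each list has genes higher and lower in SMRTmRID, and the medians run from -0.35 for the maturation and elongation-cycle enzymes to 0.17 for the regulators.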

How the data were processed

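Total RNA was labelled with biotin and hybridised to 4 Affymetrix arrays. For each array the deposited table gives a linear intensity of every probe set, which the submitters' processing notes name as MAS5; the software version and detection calls are not given in the sources used here. Signals below the filter are reported as signals, not as absent. Of 45101 probe sets, 64 controls were left out, 34945 had 1 gene symbol in GEO's platform annotation, 932 had several and 9160 had none here. Symbols were checked by gene ID against the table of GRCm38.p6, where 34741 matched.

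A gene was represented by its probe set of highest mean signal and tested when that mean exceeded 35.1, the median of all values. Of the lipid synthesis genes 30 exceeded it in each genotype's mean and 2 in only one. Values were taken as log2(signal + 16) without further normalization and the genotypes compared by limma (version 3.58.1, under R 4.3.3), with lmFit and eBayes, a variance trend and no covariates, two-sided, with Benjamini-Hochberg adjustment over the 11057 genes. The script was tested on simulated data. Precision is limited by the number of arrays. The members and lists were chosen with earlier results of these data known. Genes are named as follows: each of the 37 members is accounted for, and of each surrounding list up to 4 called genes with the largest difference are named. Hacd1, Hacd3 and the single marker genes fall outside this rule and were chosen once their values had been seen.

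The replicate numbers do not pair the arrays: deviations of same-numbered arrays correlated at 0.012. Alternatives were other pseudocounts, filters, normalizations, probe set rules, no variance trend, a block for the replicate number, and leaving out each array; with 1 array left in a genotype it is assumed to vary like the other genotype. Figures were drawn with matplotlib 3.10.9.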

Additional observations from a re-analysis of the deposited data

How the results depend on the processing

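Of the 22 lipid synthesis genes called, 18 kept direction and call under each of the 14 alternatives in which they were tested, and none changed sign while called. The exceptions were Acly, Elovl1, Fads1 and Agpat5; without a variance trend the adjusted p (limma) was 0.101 for Acly, 0.0973 for Elovl1 and 0.0862 for Fads1. Of the 10 genes not called, 8 stayed so, the others being Agpat2 and Agpat4. The genes called higher numbered 9 to 11 and those called lower 10 to 14 over all alternatives. With the replicate number as a block, 10 were higher and 13 lower, the added gene being Agpat2, and no other member changed its call. The median over the members, -0.07 as reported, was 0.012 with the filter at the 75th percentile of signal (24 members tested) and -0.15 under quantile normalization, and ran from -0.12 to 0.014 with 1 array left out, so it has no settled sign. Quantile normalization moved the median of all genes to -0.10. Testing every probe set gave 12259 calls among 20080 probe sets, against 7213 among 11057 genes. The list of regulators gave 5 higher and 3 lower without a variance trend and 1 lower with the mean of probe sets, against 9 and 5. Differences of low signals, as for Elovl7, are limited by signal over background.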
